A study of Mus musculus with 96 samples.

Results

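The 9 genes described here are known for their expression in the epithelium of the small intestine, and they fall into 2 roles. Not all of them were highest there in these data: *Reg1* was higher in the libraries labelled adipose in both genotypes, and *Apob* was higher in liver in WT. The 6 enterocyte genes *Fabp2*, *Apoa4*, *Apob*, *Lct*, *Alpi* and *Anpep* serve the uptake of lipid, sugar and peptide, and the 3 Reg genes *Reg1*, *Reg3b* and *Reg3g* encode secreted C-type lectins. They were taken by symbol from the count table, which holds 41575 gene symbols, and all 9 were found. Bulk RNA had been sequenced from 16 tissues of wild-type (WT) and Scx-/- mice aged 3 weeks, with 3 libraries per tissue and genotype and 96 libraries in all. Scx-/- mice lack scleraxis, a transcription factor of tendon progenitors, in every tissue, and no other allele or treatment was named for either group. The study compared the genotypes tissue by tissue. The age lies close to weaning in mice, a time at which the diet of the pups changes from milk to solid food. The segment of the gut behind the label intestine, the strain and the sex were not given in the sources used here.

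Enterocytes line the villi and carry a brush border of microvilli at the side of the lumen, where enzymes such as lactase and aminopeptidase N finish digestion. Absorbed fatty acids are bound by cytosolic carriers, re-esterified, and exported with apolipoprotein B in chylomicrons. Reg proteins are made by the gut epithelium and by the exocrine pancreas, and the Reg3 lectins bind bacteria and are known to rise with colonisation and with interleukin-22 signalling through STAT3. *Reg1* is also a classic gene of pancreatic acinar cells.

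The Reg genes lie close together, so the promoters of the 3 Reg genes are shown first, with the TATAAA run upstream of the start site, on the strand of the gene, in capitals. In the GRCm38 annotation *Reg3b* (chr6:78370657-78373466, plus strand), *Reg1* (chr6:78422711-78428667, plus strand) and *Reg3g* (chr6:78466269-78468872, minus strand) are protein-coding genes, and with *Reg2*, *Reg3a* and *Reg3d* they form a cluster of 6 genes within 98.2 kb. The RefSeq promoter table of GRCm38.p6 matched all 9 genes, and each entry holds 250 bases before and 50 after the start site, written 5′ to 3′ on the strand of the gene.
Reg1, chr6:78425733-78426032, plus strand: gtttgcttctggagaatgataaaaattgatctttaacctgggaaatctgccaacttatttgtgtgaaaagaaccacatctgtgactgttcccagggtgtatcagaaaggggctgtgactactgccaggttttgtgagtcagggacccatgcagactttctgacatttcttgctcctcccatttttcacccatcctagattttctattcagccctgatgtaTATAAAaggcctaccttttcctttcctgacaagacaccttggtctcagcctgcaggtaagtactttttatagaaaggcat
Reg3b, chr6:78370635-78370934, plus strand: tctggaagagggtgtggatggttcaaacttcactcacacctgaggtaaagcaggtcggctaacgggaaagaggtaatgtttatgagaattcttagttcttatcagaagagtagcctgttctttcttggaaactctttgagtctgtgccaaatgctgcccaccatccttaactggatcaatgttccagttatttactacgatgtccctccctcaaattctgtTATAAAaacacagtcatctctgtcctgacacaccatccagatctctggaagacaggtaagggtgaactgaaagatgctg
Reg3g, chr6:78468825-78469124, minus strand: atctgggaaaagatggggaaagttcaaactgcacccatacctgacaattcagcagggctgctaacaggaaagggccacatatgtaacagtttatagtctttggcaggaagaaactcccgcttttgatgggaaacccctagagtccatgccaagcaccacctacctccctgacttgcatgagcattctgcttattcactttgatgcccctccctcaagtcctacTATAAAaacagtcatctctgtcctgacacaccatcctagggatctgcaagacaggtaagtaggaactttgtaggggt

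The capital run began at -30, -29 and -27 bases from the start site in *Reg1*, *Reg3b* and *Reg3g*. Aligned with each other, the *Reg3b* and *Reg3g* promoters were identical at 71.4% of 294 aligned bases and shared a run of 29 bases, whereas *Reg1* was identical to *Reg3b* at 60.4% of 270 bases and to *Reg3g* at 65.0% of 260. TATAAA on either strand was found in 5 of the 9 promoters and in 13.6% of all 32851 promoters of this length. A STAT-like run, TTCNNNGAA, was found in 1 of the 9, *Reg3b*, at -129, and in 8.3% of all promoters. Each search covered both strands, and a match here describes letters, not a bound site.

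Lactase is shown for its pair of GATA-like runs. In the *Lct* promoter the capitals mark TTTAT, as bound by CDX factors, and AGATAA, as bound by GATA factors, on either strand, and the first run is an overlap of both.
Lct, chr1:128328269-128328568, minus strand: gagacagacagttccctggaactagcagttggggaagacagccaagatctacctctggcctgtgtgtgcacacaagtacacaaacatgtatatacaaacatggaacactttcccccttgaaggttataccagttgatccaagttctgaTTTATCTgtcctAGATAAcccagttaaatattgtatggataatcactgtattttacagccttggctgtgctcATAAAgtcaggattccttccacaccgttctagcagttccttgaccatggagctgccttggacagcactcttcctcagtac

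AGATAA occurred in 1 of the 9 promoters, *Lct* (2 matches), and in 11.2% of all promoters. TTTAT occurred in 7 of 9 and in 40.0% of all, and in the 3 Reg genes the match nearest the start site at -29, -28 and -26 lies inside the TATAAA run on the other strand. CAAAG, the core of HNF4 sites, occurred in 6 of 9 against 53.9%, and GTTAAT, as bound by HNF1, in 0 of 9 against 7.1%.

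Library totals ranged from 11244 to 1658192 counts (median 251640). In intestine they were 386890, 127356 and 93927 in the WT libraries and 54955, 30014 and 26500 in the Scx-/- libraries, so that every Scx-/- library was shallower than every WT library. The targeted gene *Scx* had 80 counts in all in 12 of 48 WT libraries and 9 counts in 1 of 48 Scx-/- libraries. Libraries of 1 group differed by more than counting error (chi-square per degree of freedom at least 6.93). Nothing in the labels says which libraries share a mouse, so p-values measure the spread between libraries. The libraries labelled adipose went against their label: *Adipoq*, a gene of fat cells, had 1 count in the 6 libraries, *Plin1* 3, *Cfd* 3 and *Lep* 0, and *Fabp4*, which endothelial cells also make, had 28 counts in WT and 21 in Scx-/- libraries (5.99 to 123.5 CPM), while 19 pancreatic acinar genes made up 54.5 to 65.3% of the counts.

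All values below are CPM, the count of a gene per 1000000 counts of its library, and each mean is given ± SD over the 3 libraries of a genotype. These levels rest on library totals. TMM-scaled totals here use TMM factors computed over all libraries of the series together. On these the Scx-/- intestine levels are lower by the factors of those libraries (1.73 to 2.48, against 0.966 to 1.47 in WT), and liver levels are higher (factors 0.493 to 0.756). The tests further on compute TMM factors anew within the libraries of each comparison, so their scaling differs from these levels.

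Among the genes of lipid handling, *Fabp2* and *Apoa4* were far higher in intestine than elsewhere, and *Apob* was shared with liver. *Fabp2* (chr3:122895072-122899506, plus strand) encodes the intestinal fatty acid binding protein. Its level in intestine was 7588 ± 3712 CPM in WT and 10142 ± 2558 CPM in Scx-/-. The next tissue was liver at 111.8 ± 87.0 and 95.6 ± 54.1 CPM, 67.9-fold and 106-fold lower (39.3-fold and 25.7-fold on TMM-scaled totals). All 90 libraries of the other tissues lay below the lowest intestine library, and 35 of them had any count. *Apoa4* (chr9:46240696-46243459, plus strand) encodes an apolipoprotein of chylomicrons. It reached 20053 ± 9182 CPM in WT intestine and 36842 ± 19592 CPM in Scx-/- intestine, against 190.6 ± 78.0 CPM in WT liver and 147.6 ± 61.3 CPM in Scx-/- stomach, the next tissue of each genotype. For *Apoa4* too, all 90 other libraries were below every intestine library, and 97.0% of its WT and 87.1% of its Scx-/- counts came from intestine.

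*Apob* (chr12:7977648-8016835, plus strand) encodes the structural protein of chylomicrons and of the lipoproteins made by liver. In intestine the WT libraries gave 131.8, 47.1 and 21.3 CPM and the Scx-/- libraries 109.2, 99.95 and 339.6 CPM. Liver gave 159.9, 97.9 and 49.4 CPM in WT and 70.3, 30.6 and 32.8 CPM in Scx-/-. The WT ranges of intestine and liver overlapped, with the higher mean in liver (102.4 ± 55.4 against 66.7 ± 57.8 CPM). In Scx-/- mice they did not overlap and intestine was higher (182.9 ± 136 against 44.6 ± 22.3 CPM). That order depended on the scaling: on TMM-scaled totals the Scx-/- means were 80.5 ± 50.2 CPM in intestine and 86.8 ± 48.4 CPM in liver, with overlapping ranges. Outside these tissues *Apob* had a count in 4 of 84 libraries. Hepatocyte markers were low in intestine, where the 12 listed genes summed to 7.9 to 91.0 CPM.

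The brush border genes had intestine as their highest tissue in both genotypes. *Lct* (chr1:128284756-128328318, minus strand) encodes lactase, which splits milk sugar. Its values were 1303, 588.9 and 841.1 CPM in WT and 1256, 1333 and 1208 CPM in Scx-/- intestine, the narrowest spread of the 9 genes over the 6 libraries (2.26-fold from lowest to highest). The next tissue was hippocampus, at 52.6 ± 76.9 CPM in WT and 28.7 ± 40.0 CPM in Scx-/-, where single libraries stood out, such as WT replicate 2 with 26 counts. *Lct* was at 0 in all 6 kidney and all 6 liver libraries, which allows up to 0.837 and 1.02 CPM when 3 counts over the group are taken as the floor.

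*Alpi* (chr1:87098002-87101606, minus strand) encodes intestinal alkaline phosphatase, an enzyme that detoxifies bacterial lipopolysaccharide. It measured 1044, 1610 and 1799 CPM in WT intestine and 3749, 3565 and 566.0 CPM in Scx-/- intestine. The Scx-/- libraries included both the highest values and the lowest. The next tissues were WT stomach, where 1 library held all 27 counts, and Scx-/- muscle at 16.7 ± 17.5 CPM. *Anpep* (chr7:79821803-79861059, minus strand), aminopeptidase N, trims peptides at the brush border of gut and kidney. It was the least restricted of the brush border genes: intestine held 63.1% of its WT and 13.1% of its Scx-/- counts, a share that depends on depth, and the levels of 543.6 ± 285 CPM in WT and 329.2 ± 163 CPM in Scx-/- intestine were 10.2-fold and 8.32-fold above the next tissue, WT kidney (53.4 ± 38.2 CPM) and Scx-/- stomach (39.6 ± 8.22 CPM). Still, all 90 other libraries were below the lowest intestine library.

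The 3 Reg genes differed from each other in where they were found. *Reg1* was highest in the libraries labelled adipose, at 38670 ± 5323 CPM in WT and 27959 ± 10173 CPM in Scx-/-, and intestine came second at 6688 ± 3634 and 7101 ± 3339 CPM. Spleen came next in both genotypes, with 760.0, 731.1 and 10.5 CPM in WT and 12.8, 6144 and 897.4 CPM in Scx-/-. The spleen values therefore ran from near 0 to the level of intestine within 1 genotype. Of all *Reg1* counts, 17.1% in WT and 2.40% in Scx-/- came from intestine, a share that depends on the depth of the libraries.

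*Reg3b* was uneven within intestine. The WT libraries gave 2564, 15.7 and 191.6 CPM (992, 2 and 18 counts) and the Scx-/- libraries 54.6, 899.6 and 452.8 CPM (3, 27 and 12 counts), a 163-fold range. The libraries labelled adipose were next, at 32.1 to 437.0 CPM, and the ranges of these tissues overlapped. In the other 14 tissues *Reg3b* had counts in 5 of 84 libraries. *Reg3g* was found in 3 of 6 intestine libraries, with 91 counts (235.2 CPM) in WT replicate 1, 14 counts (109.9 CPM) in WT replicate 2 and 7 counts (264.2 CPM) in Scx-/- replicate 3. In the remaining 3 it was at 0, which at a floor of 3 counts allows up to 31.9 CPM in WT replicate 3 and 54.6 and 99.95 CPM in Scx-/- replicates 1 and 2, all below the lowest detected value. Elsewhere *Reg3g* had counts in 6 of 90 libraries, of which lung held 12 counts in WT replicate 1 and 19 in Scx-/- replicate 2. *Reg3b* was at 0 in both of these lung libraries.

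In bulk tissue, fewer cells of a type and less RNA per cell cannot be told apart, and this holds for each level given here. Together the 6 enterocyte genes took 1.59 to 7.62% of the counts of an intestine library and the 3 Reg genes 0.540 to 1.10%. The highest mean lay in intestine for 7 of 9 genes in WT (all but *Apob* and *Reg1*) and for 8 of 9 in Scx-/- (all but *Reg1*). On totals scaled by TMM factors, the Scx-/- number was 6, without *Apob* and *Reg3b*. The plot of CPM by tissue shows these patterns library by library.

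**Figure D1:**
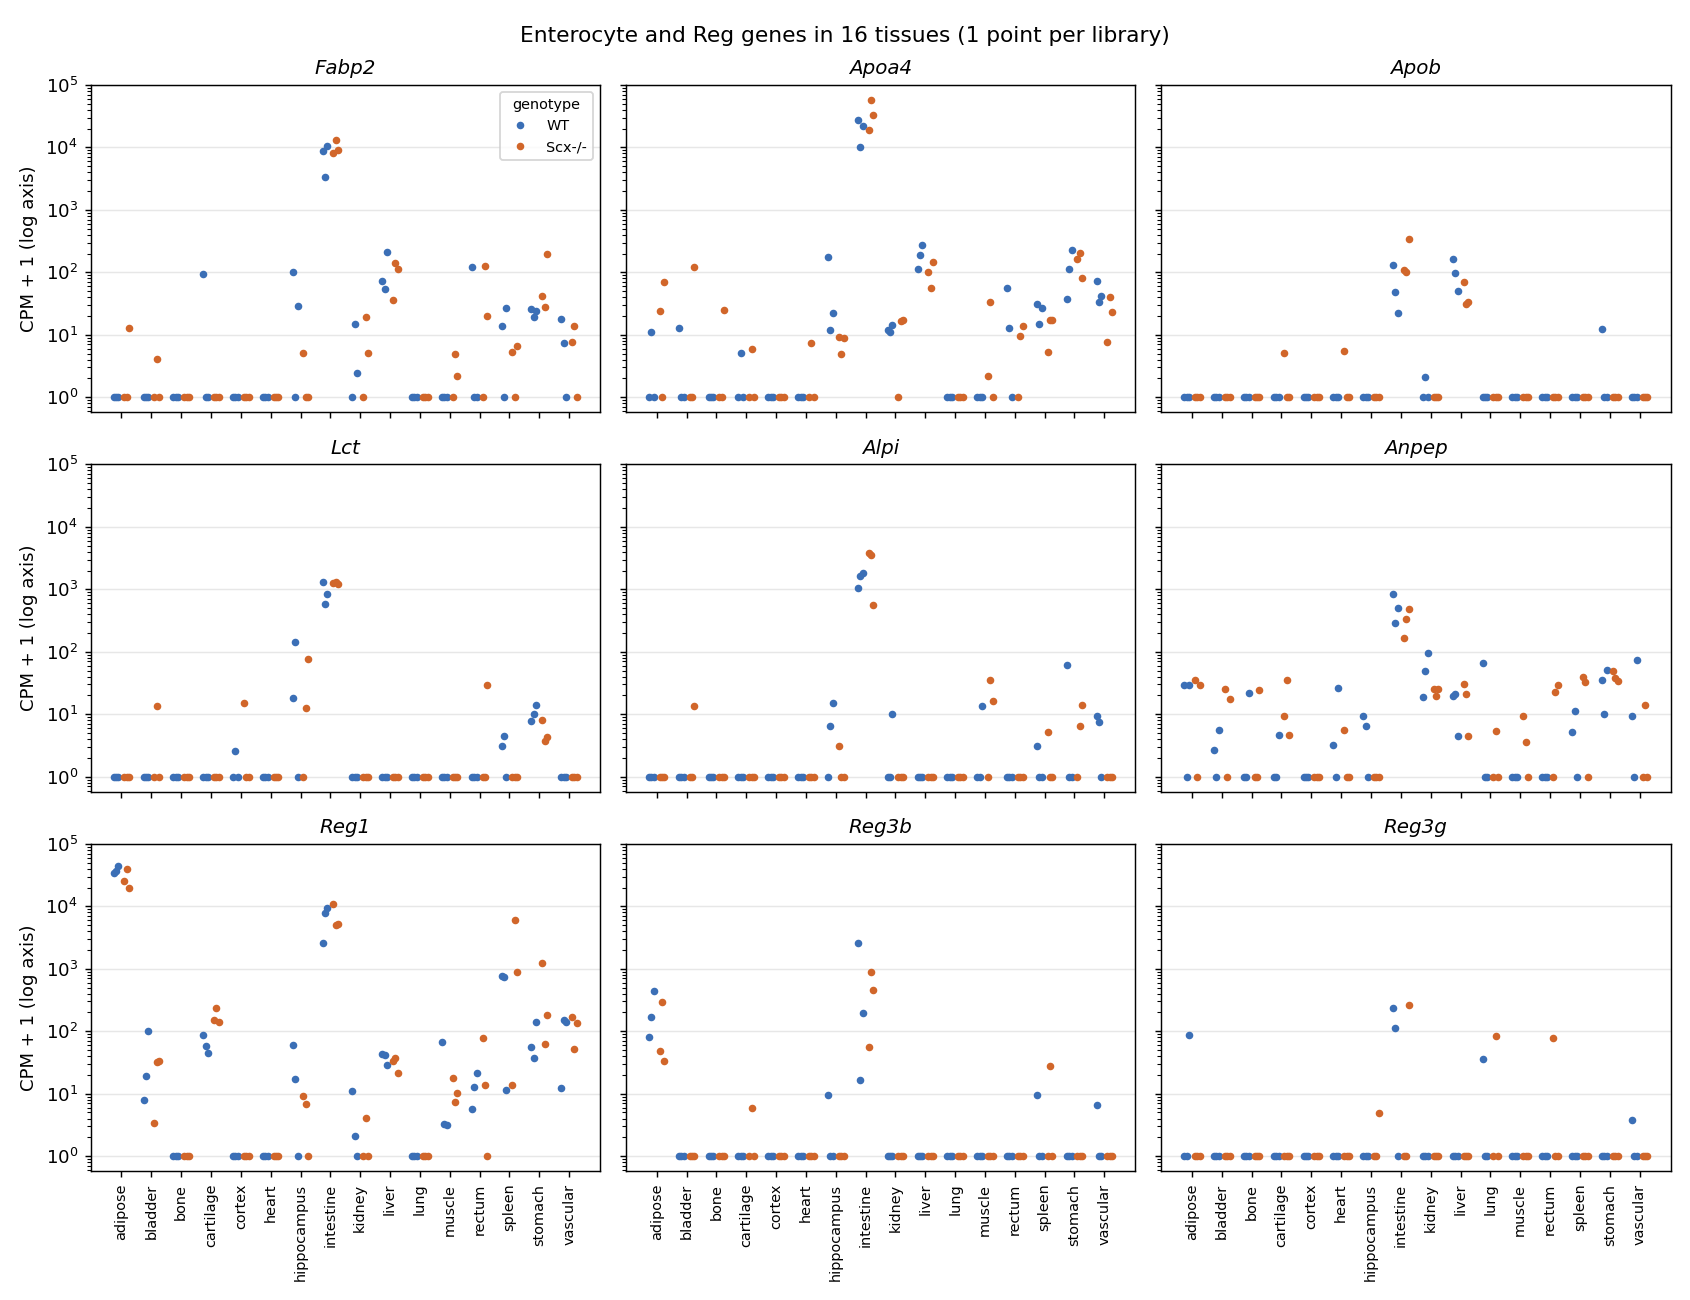
CPM + 1 on a log axis for each of the 9 genes (panels) in 16 tissues, 1 point per library, blue for WT and orange for Scx-/-, 3 libraries per genotype. *Fabp2*, *Apoa4*, *Lct*, *Alpi* and *Anpep* stand above all 90 other libraries in intestine, *Apob* is shared with liver, and *Reg1* is highest in the libraries labelled adipose.

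In several tissues *Reg1* and pancreatic acinar genes stood in a similar ratio, and the ratio summed over the libraries was highest in intestine. The acinar list of digestive enzyme genes (*Cela2a*, *Ctrb1*, *Cpa1*, *Pnlip* and others) was used without *Zg16*, which goblet cells also make and which was left out after its values were seen. Per 100 counts of these genes there were 4.72 counts of *Reg1* in the libraries labelled adipose (3.08 to 8.18 over the 6 libraries), 4.55 in spleen, 4.02 in stomach, 4.93 in liver and 5.09 in cartilage. Muscle had 5.41, bladder 5.49, vascular 7.70, hippocampus 10.97 (on 17 *Reg1* counts), rectum 3.75 and kidney 0.943 (on 12 *Reg1* counts each). Single libraries reached 23.1 in spleen, 31.6 in rectum and 44.4 in hippocampus. Cortex, heart, bone and lung had 115, 38, 18 and 15 acinar counts and 0 of *Reg1*. In cartilage *Reg1* measured 87.2, 56.5 and 43.5 CPM in WT and 148.9, 238.6 and 141.3 CPM in Scx-/-. Genotypes were not tested there, so no difference is read from these values. In intestine there were 58.2, and the 6 libraries ranged from 23.0 to 2395, so that the lowest of them overlapped those single libraries. The ranges of intestine and of the libraries labelled adipose did not overlap.

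The extremes show the difference. Spleen Scx-/- replicate 2, with 6144 CPM of *Reg1*, held 109037 CPM of acinar genes, and stomach Scx-/- replicate 1, with 1243 CPM of *Reg1*, held 30800 CPM. By contrast, intestine WT replicate 1 held 2600 CPM of *Reg1* beside 108.6 CPM of acinar genes. Within intestine, the library with the lowest acinar CPM also had the lowest *Reg1*, and the library with the most, Scx-/- replicate 1 (47530 CPM), had the highest *Reg1* (10954 CPM). Whether acinar RNA contributes to the *Reg1* level of intestine was not tested further.

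**Figure D2:**
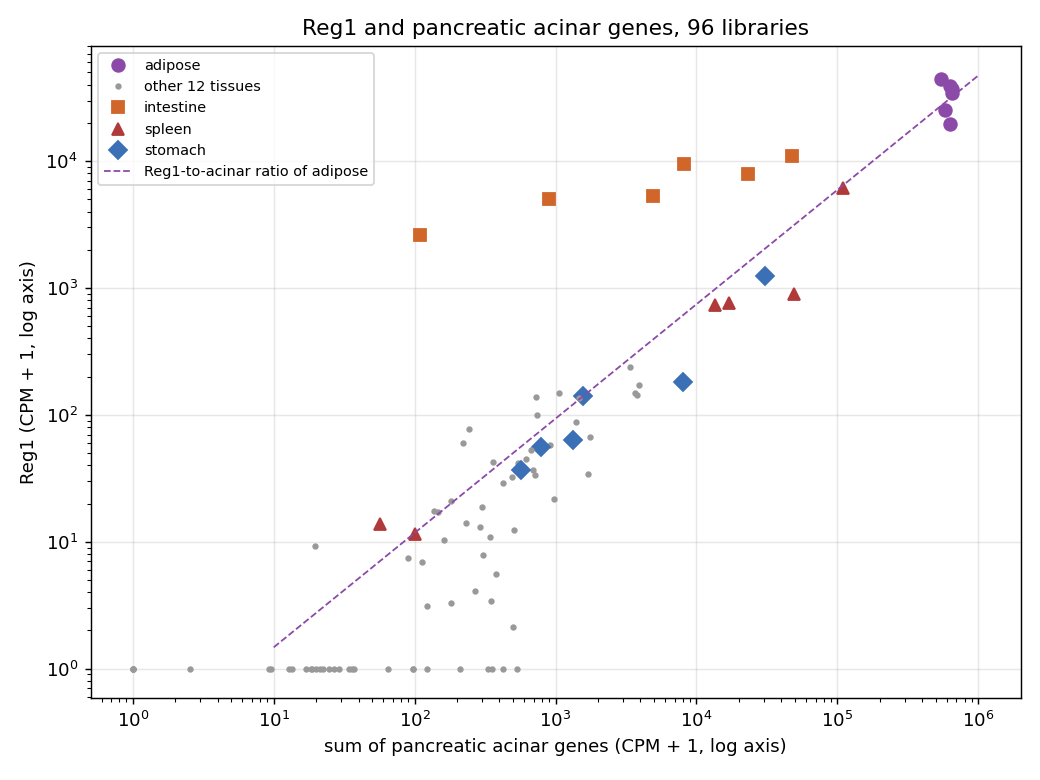
*Reg1* against the sum of 19 pancreatic acinar genes, both as CPM + 1 on log axes, 1 point per library (96 libraries). The dashed line is the ratio of 4.72 *Reg1* counts per 100 acinar counts of the libraries labelled adipose (purple), the spleen and stomach points lie around it, and the 6 intestine points (orange squares) lie above it.

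The intestine was next compared with 4 tissues that share gut wall, absorptive epithelium or lipoprotein secretion, over both genotypes with genotype as a term (6 against 6 libraries, edgeR quasi-likelihood test, Benjamini-Hochberg adjustment over all genes). Called means an adjusted p under 0.05. Against rectum, 8 of 9 genes were called higher in intestine, where 1.41% of the 15482 genes tested were called higher. Against stomach it was 9 of 9 (background 2.32%), against kidney 9 of 9 (3.63%) and against liver 8 of 9 (3.76%). The median log2 fold change of the 9 genes was 7.15, 6.63, 9.87 and 6.38 against rectum, stomach, kidney and liver, and 7.15, 6.51, 9.70 and 6.38 with genes at 0 in the other tissue set to their lower bound. The bounds rest on library totals, whereas the fitted values use TMM factors. The median over all genes was -0.80, -0.998, -1.15 and -0.65. These genes were proposed as intestine markers with these data known, so the counts describe how far the contrast reached.

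Against rectum, *Apoa4* differed by a log2 fold change of 10.36 ± 0.52 (SE, edgeR adjusted p = 3.92e-85) and *Fabp2* by 7.15 ± 0.58 (edgeR adjusted p = 1.84e-23). *Alpi*, *Apob* and *Reg3b* were at 0 in all 6 rectum libraries. On library totals they were at least 667-fold, 40.5-fold and 226-fold higher in intestine, against a floor of 3 counts over the 973901 counts of the group. Without intestine WT replicate 1 the bound of *Reg3b* was 105-fold, and without Scx-/- replicate 3 that of *Apob* was 26.6-fold. The enzyme *Lct* had 9 counts in rectum, all in Scx-/- replicate 3, and was 7.04 ± 0.85 higher on the log2 scale (edgeR adjusted p = 8.59e-14). *Reg1* was 8.49 ± 0.61 higher (edgeR adjusted p = 6.08e-40). *Reg3g* at 3.45 ± 1.52 (edgeR adjusted p = 0.253) was not called, and its 6 counts in rectum all came from Scx-/- replicate 1.

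Against stomach, *Reg1* was close to the threshold (log2 fold change 4.37 ± 1.09, edgeR adjusted p = 0.0498) and lost the call in 9 of 12 fits that left out 1 library (adjusted p up to 0.126), keeping it only without stomach Scx-/- replicate 1 or 2 or intestine WT replicate 3. Its 6 stomach values were 54.5, 35.9 and 138.6 CPM in WT and 1243, 61.9 and 181.8 CPM in Scx-/-. *Anpep* was 2.87 ± 0.68 higher than in stomach (edgeR adjusted p = 0.00104) and 3.02 ± 0.63 higher than in kidney (edgeR adjusted p = 5.42e-05), and both calls were lost after thinning to the lowest total (edgeR adjusted p = 0.432 and 0.0810). *Reg3b* and *Reg3g* were at 0 in stomach, kidney and liver. On library totals the lower bounds were 571-, 832- and 684-fold for *Reg3b* (265-, 386- and 317-fold without intestine WT replicate 1) and 83.2-, 121- and 99.7-fold for *Reg3g*.

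Against liver, *Fabp2* and *Apoa4* were higher by 5.11 ± 0.40 and 6.32 ± 0.35 on the log2 scale (edgeR adjusted p = 3.15e-35 and 1.54e-71). *Apob* differed by -0.58 ± 0.81 (edgeR adjusted p = 0.682), and the direction turned with the scaling, to 0.67 ± 0.82 on library totals (edgeR adjusted p = 0.655). *Lct* and *Alpi* were at 0 in liver, on library totals at least 1069-fold and 2019-fold below intestine. On TMM-scaled totals these bounds are lower, since the liver floor rises and the intestine means fall. Those means were 787.8 and 587.9 CPM for *Lct* and 1172 and 1289 CPM for *Alpi*, in WT and Scx-/-.

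Other genes of the same functions, from lists drawn up with earlier results of these data known and without the 9 genes, moved in the same contrast. Of 16 tested genes of lipid absorption and chylomicrons, 12 were called higher in intestine than in rectum and 0 lower (median log2 fold change 4.68), among them *Apoa1*, an apolipoprotein of high-density lipoprotein (8.88 ± 0.59, edgeR adjusted p = 1.26e-47), and *Fabp1*, the liver-type fatty acid carrier that proximal enterocytes share (10.04 ± 0.76, edgeR adjusted p = 4.62e-36). Of 13 brush border enzymes 10 were called higher and 0 lower (median 4.53), including the maltase *Mgam* (3.70 ± 0.65, edgeR adjusted p = 1.93e-06). Of 11 brush border transporters 7 were higher (median 3.26), among them the folate carrier *Slc46a1* and the glucose carrier *Slc5a1*. Of 11 genes of brush border structure 4 were higher (median 2.00), among them *Vil1*, villin, and *Myo1a*. Of 11 intestinal transcription factors 4 were higher, such as *Creb3l3*, a regulator of lipid genes, and *Hnf4g*.

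Against liver the lipid list split, with 4 of its 16 genes higher in intestine and 6 lower (median -0.18), where 3.76% of all genes were called higher and 7.1% lower, whereas brush border structure gave 11 of 11 higher (median 8.26). The lower calls in the lipid list depended on the setting: on library totals 5 genes were higher and 0 lower (median 1.07, with 0.36 over all genes against -0.65 with TMM factors), and thinning left 2 higher and 0 lower. Brush border structure kept 11 higher on library totals and 7 after thinning. Markers of the stage of development were present from both sides of weaning. All 4 tested genes typical of weaned mice, among them *Mgam*, the trehalase *Treh* and the sucrase *Sis*, were higher in intestine than in rectum. Of 7 further genes typical of suckling mice 2 were higher, *Amn* and *Cubn*, which form the receptor complex for protein uptake.

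The remaining lists describe the neighbouring cell types, in a contrast with 1.37% of all genes called lower. Of 8 Paneth cell genes 5 were higher in intestine than in rectum, among them the antimicrobial genes *Defa24*, *Lyz1* and *Defa17*, and of 16 other defence genes 15 were tested with 2 higher and 3 lower. Of the other 4 Reg genes 1 was higher, *Reg3a* (7.19 ± 1.496, edgeR adjusted p = 0.000165). Of 15 genes of the signals that induce Reg3 lectins 7 were tested, with 0 higher and 1 lower. *Il22*, *Il17a* and *Il6* were at 0 in intestine. Smooth muscle (6 of 8 lower), stratified squamous epithelium (6 of 9 lower), colonocyte (3 of 7 lower) and colon and rectum genes (3 of 8 lower) marked rectum, with *Car1*, a carbonic anhydrase of colon, at 1564 ± 508 CPM in WT rectum and 0 in WT intestine. Within rectum the genotypes differed in the squamous list, with 7 of 9 genes called higher in Scx-/- (0.441% of all genes were called in either direction), whereas 0 of 8 smooth muscle genes were called and 1 of 7 colonocyte and 1 of 8 colon and rectum genes were called lower. Squamous genes summed to 4.6, 12.03 and 20.1 CPM in WT and 18740, 6279 and 5436 CPM in Scx-/-, and the part of this in the contrast was not tested. Acinar genes were higher in intestine for 13 of 18, *Zg16* included here and not called (13 of 17 without it), proximal small intestine genes for 4 of 7 and distal ones for 2 of 6. Enteroendocrine genes gave 2 of 7 higher and 1 lower, goblet and general epithelial genes 1 lower of 7 and of 5. Gastric, hepatocyte, proximal tubule and leukocyte genes gave 0 calls by edgeR (in that order 4 of 9, 2 of 6, 1 of 9 and 1 of 7 at an unadjusted p under 0.05). At that threshold stood 2296 of all 15482 genes.

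**Figure D3:**
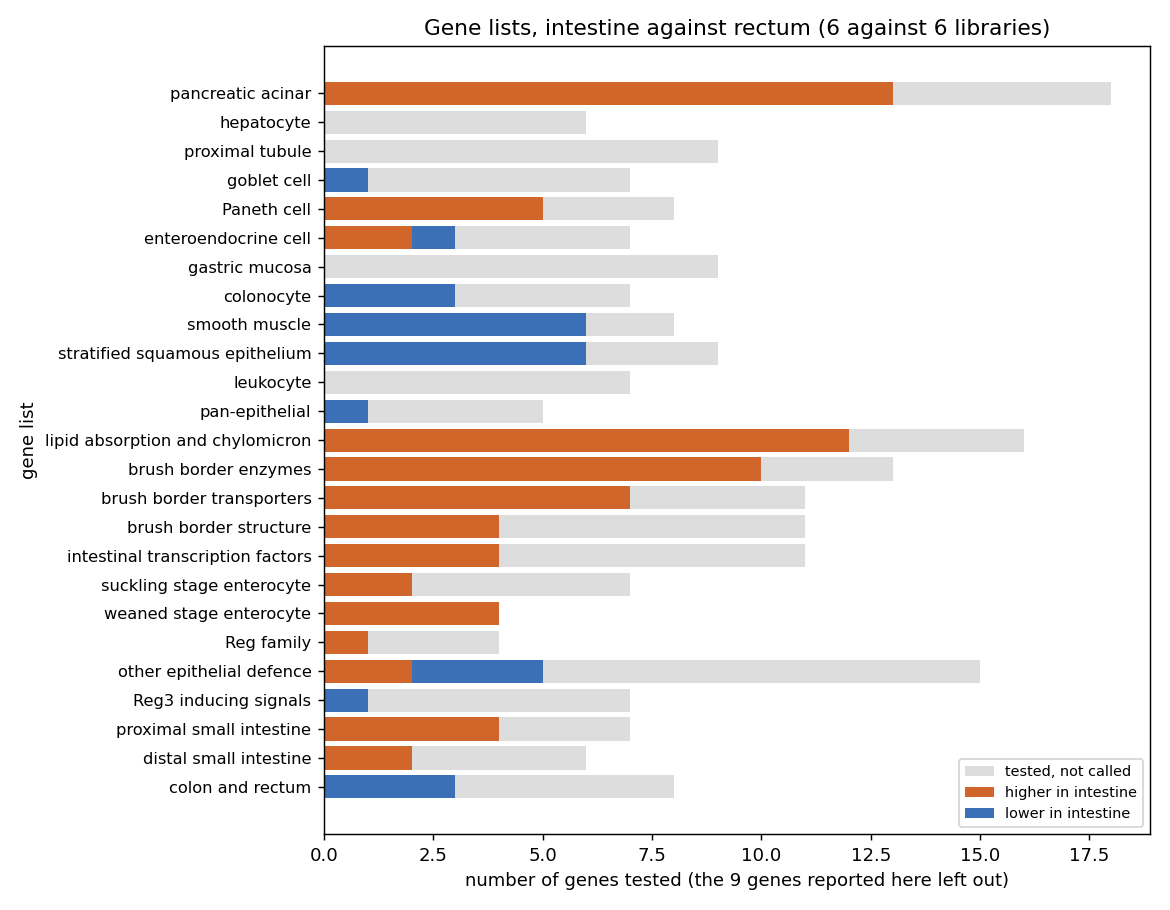
Number of genes per list tested in intestine against rectum (6 against 6 libraries), with those called higher in intestine in orange, lower in blue and not called in grey, the 9 genes themselves left out. Acinar genes (13 of 18, *Zg16* included), lipid absorption (12 of 16) and brush border enzymes (10 of 13) have the longest orange bars, while smooth muscle and stratified squamous epithelium (6 each) hold the most blue.

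The genotypes were then compared within intestine, 3 Scx-/- against 3 WT libraries. None of the 9 genes was called. By edgeR 0 of all 12068 genes tested were called (percent called 0), with 513 genes (4.25%) at an unadjusted p under 0.05, of which 0 belonged to the 9 and each exceeded a log2 fold change of 1 in size, and DESeq2 called 1 gene, not among the 9. The median log2 fold change of the 9 genes was -0.05, with -1.63 over all genes and -0.72 over the 2857 genes with at least 50 counts in the 6 libraries. The all-gene median was -1.26 with RLE factors, -1.21 on library totals, -0.28 with DESeq2 and -0.19 with filterByExpr, and each gene below shifts with the scaling.

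Lipid genes showed no difference beyond the spread. *Fabp2* measured 8928, 3392 and 10444 CPM in WT and 8152, 13027 and 9245 CPM in Scx-/-, and the values overlapped. Its log2 fold change was -0.05 ± 0.32 (edgeR adjusted p = 0.940), and it turned to 0.35 with RLE factors and 0.42 on library totals. *Apoa4* measured 27972, 9988 and 22198 CPM in WT against 19107, 57873 and 33547 CPM in Scx-/- (0.34 ± 0.23, edgeR adjusted p = 0.652). For *Apob*, with 77 counts over the 6 libraries, the difference was 0.80 ± 1.65 (edgeR adjusted p = 0.810).

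Among brush border genes, the *Lct* values overlapped, with 2 of the 3 Scx-/- libraries inside the WT range (-0.02 ± 0.63, edgeR adjusted p = 0.990), and its sign turned in the same scalings (0.41 and 0.47). *Alpi* differed by 0.44 ± 0.51 (edgeR adjusted p = 0.685), and by -0.18 without Scx-/- replicate 1. *Anpep* measured 847.8, 282.7 and 500.4 CPM in WT and 163.8, 333.2 and 490.6 CPM in Scx-/-, with overlapping ranges (-1.30 ± 0.90, edgeR adjusted p = 0.652).

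For the Reg genes, *Reg1* measured 2600, 7915 and 9550 CPM in WT and 10954, 5064 and 5283 CPM in Scx-/- (-0.26 ± 0.34, edgeR adjusted p = 0.712), and its sign turned with RLE factors and on library totals (0.03 and 0.09). The difference of *Reg3b* was -1.70 ± 0.92 (edgeR adjusted p = 0.652), and 1.76 without WT replicate 1, the library with 992 of its 1054 intestine counts. *Reg3g* differed by -1.16 ± 1.74 (edgeR adjusted p = 0.737). With standard errors of this size, differences of several fold in *Anpep*, *Apob*, *Reg3b* and *Reg3g* were not detectable. The limit is not confined to these genes. *Lct* and *Alpi* had standard errors of 0.63 and 0.51, and 0 of all 12068 genes were called.

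**Figure D4:**
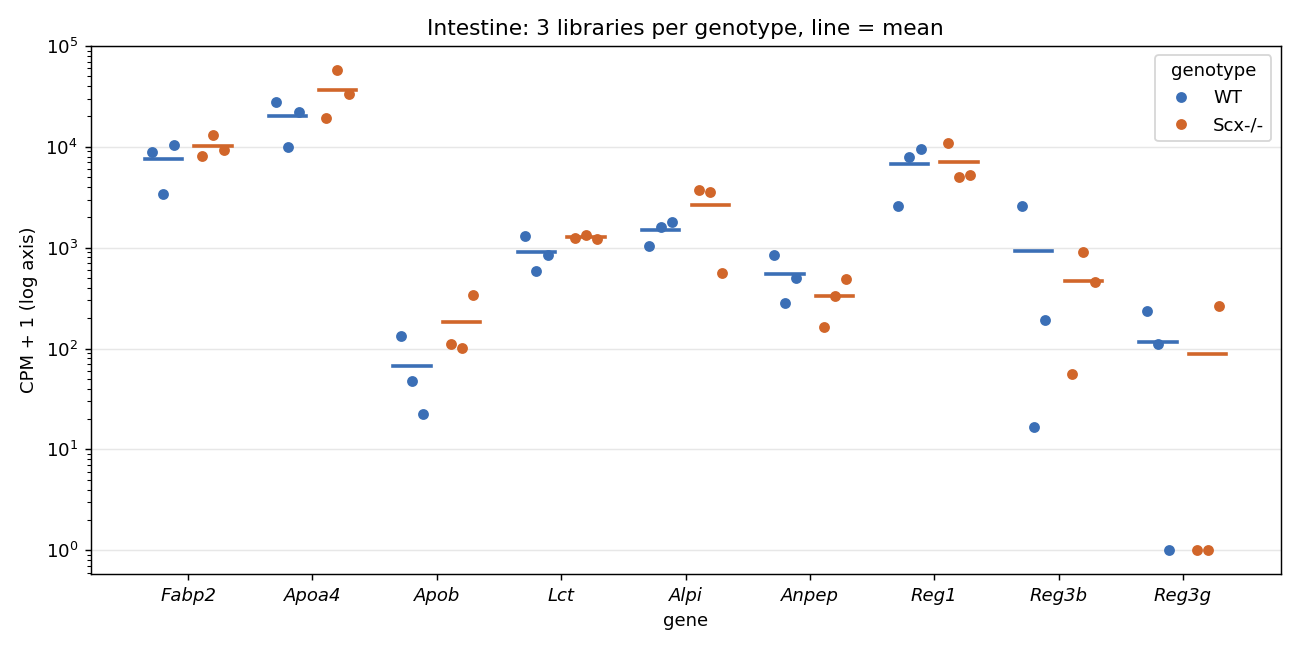
CPM + 1 on a log axis for the 9 genes in intestine, 3 points and a line at their mean per genotype (blue WT, orange Scx-/-). The genotypes overlap for each gene, *Lct* is the tightest, and *Reg3b* spans 163-fold.

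**Figure D5:**
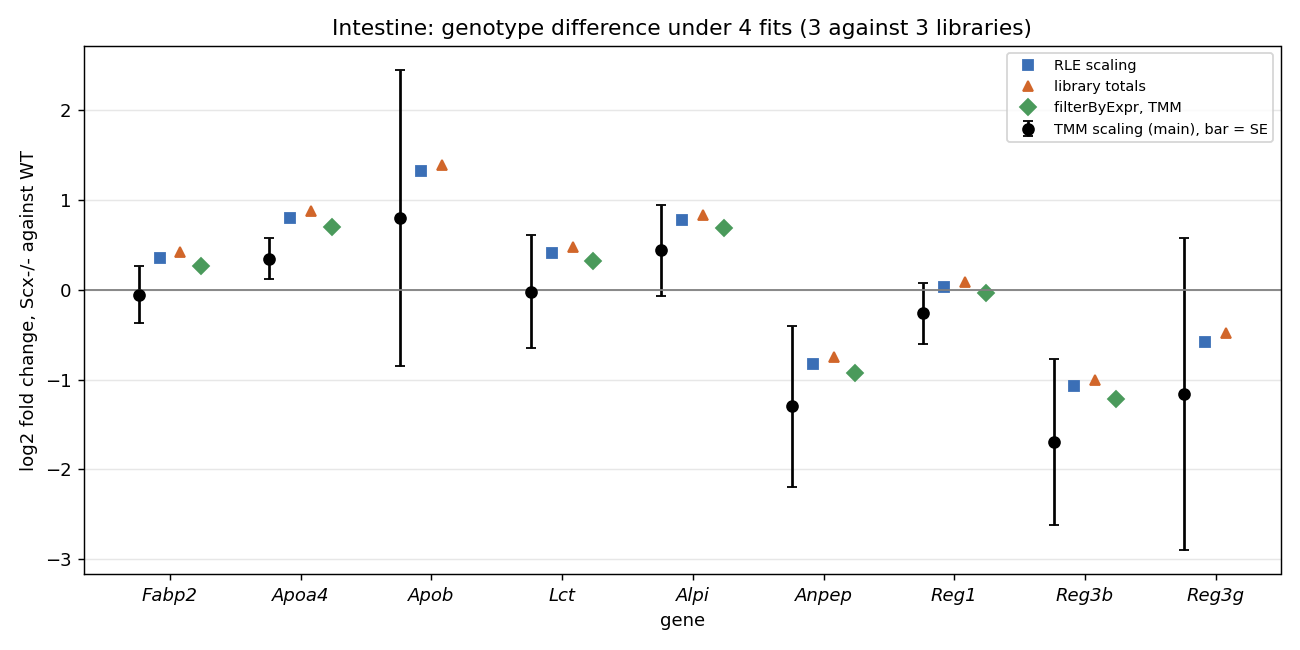
Log2 fold change of Scx-/- against WT in intestine for the 9 genes under 4 fits, with the SE of the TMM fit as bars (3 against 3 libraries). RLE factors and library totals shift the values upward together, so that *Fabp2*, *Lct* and *Reg1* change sign. *Apob* and *Reg3g* have no point for the fit with filterByExpr.

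The lists of related genes gave 0 calls between genotypes in intestine as well. Lipid absorption genes were split evenly, with 8 positive and 8 negative log2 fold changes (median 0.01). Brush border enzymes had a median of -0.31 (6 positive, 7 negative), transporters -0.43, brush border structure -0.37 and transcription factors -0.59. These medians lay above the all-gene median of the same fit (-1.63), which moved with the filter and the tool as given above. Paneth cell genes had a median of -1.03 with 8 of 8 negative, and the 4 other Reg genes -2.40 with 4 of 4 negative. Negative values in every tested gene were also found in lists of other cell types, with 8 of 8 smooth muscle, 6 of 6 goblet cell and 5 of 5 general epithelial genes and 5 of 5 genes of the Reg3-inducing signals, so the direction was not particular to the Paneth cell and Reg lists. Among those, *Reg3a* measured 247.1 ± 297 CPM in WT and 83.6 ± 76.8 CPM in Scx-/-, and *Reg4*, a Reg gene outside the cluster, 257.9 ± 79.7 and 75.5 ± 131 CPM.

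The weaned list is given by library because its sums stood apart on library totals, and the gastric list because it belongs to another organ. Genes of weaned enterocytes summed to 2859, 1790 and 1767 CPM in WT and 3421, 4565 and 3245 CPM in Scx-/-, and 0 of the 4 genes tested were called (median 0.53). The separation depends on the scaling. TMM factors were 1.73 to 2.48 in Scx-/- intestine and 0.966 to 1.47 in WT, so they lower the Scx-/- sums more. Gastric genes summed to 307.6, 1955 and 479.1 CPM in WT and 6696, 199.9 and 4000 CPM in Scx-/-, with overlapping ranges. The part of gastric genes in the values of the 9 genes was not tested. Genes typical of suckling, *Lct* included, summed to 2140, 1327 and 1554 CPM in WT and 1419, 2299 and 1585 CPM in Scx-/-, with overlap.

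In the other 5 tissues tested between genotypes, 0 of the members measured were called. Rectum, stomach, kidney, liver and the libraries labelled adipose allowed tests of 6, 7, 6, 5 and 6 of the 9 genes, and the share of all genes called was 0.441%, 0.0609%, 0.195%, 0.442% and 0.0091%. At an unadjusted p under 0.05 there were 2 such results, *Fabp2* in stomach and *Reg3g* in the libraries labelled adipose, where a single WT library held all 9 counts. At that threshold stood 3.69% of all genes in stomach and 3.37% in the libraries labelled adipose. *Fabp2* in stomach measured 25.0, 18.0 and 23.1 CPM in WT and 41.4, 26.9 and 198.0 CPM in Scx-/- and was not called (log2 fold change 1.93 ± 0.89, edgeR adjusted p = 0.797).

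*Reg1* in stomach differed by 2.82 ± 1.5 (edgeR adjusted p = 0.797) and was called only without Scx-/- replicate 2. In the same tissue the acinar genes *Try5*, a trypsinogen (4.68 ± 0.60, edgeR adjusted p = 3.70e-09), and *Pnlip*, pancreatic lipase (4.07 ± 0.74, edgeR adjusted p = 0.0393), were called. *Pnlip* lost the call with filterByExpr (edgeR adjusted p = 0.9996), which left *Try5* untested. Leaving out 1 library ended the call of *Try5* without WT replicate 2 or 3 (edgeR adjusted p = 0.228 and 0.869) and that of *Pnlip* in every case but Scx-/- replicate 2 (edgeR adjusted p of 0.124 to 0.873). The acinar sum was highest in the library with the highest *Reg1*, Scx-/- replicate 1. In the libraries labelled adipose *Reg1* differed by 0.12 ± 0.23 with TMM factors (edgeR adjusted p = 0.800), where the all-gene median was 1.47, and by -0.31 with RLE factors and -0.47 on library totals, the direction of the mean CPM. *Reg3b* differed there by -0.19 ± 0.84 (edgeR adjusted p = 0.925), and its sign turned without WT replicate 3 (0.51), Scx-/- replicate 1 (0.22) or Scx-/- replicate 3 (0.26).

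In liver the differences were -1.03 ± 0.68 for *Apob*, -0.72 ± 0.48 for *Apoa4* and -0.05 ± 0.56 for *Fabp2* (edgeR adjusted p = 0.746, 0.746 and 0.990), whereas *Fabp1*, the liver-type carrier (-0.84 ± 0.20, edgeR adjusted p = 0.0114), and the apolipoprotein gene *Apoa2* (0.72 ± 0.16, edgeR adjusted p = 0.00314) were called. Also called higher among the listed genes were *Cyp2e1* (1.18 ± 0.20, edgeR adjusted p = 4.64e-06) and *Tat* (0.94 ± 0.24, edgeR adjusted p = 0.0277). *Fabp1* and *Apoa2* lost the call with filterByExpr (edgeR adjusted p = 0.254 and 0.322) and without WT replicate 2 (edgeR adjusted p = 0.686 and 0.167). *Fabp1* also lost it without Scx-/- replicate 2 or 3 (edgeR adjusted p = 0.774 and 0.102) and under the replicate block (0.111), and *Apoa2* without Scx-/- replicate 1 (0.107), with DESeq2 (0.0861), on library totals (0.0703) and after thinning (0.0580). In kidney *Anpep* differed by -1.31 ± 0.93 (edgeR adjusted p = 0.791). In rectum the WT libraries had 0 counts of *Anpep*, *Lct* and *Reg3g* and the Scx-/- libraries 14, 9 and 6, with edgeR adjusted p = 0.706 for each.

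Whether the genotype difference itself differed between intestine and rectum was tested with an interaction term, and 0 of the 9 genes were called (0.0258% of all genes, 4 genes). *Anpep* (-6.08 ± 2.11), *Lct* (-4.12 ± 1.74), *Reg3g* (-5.96 ± 2.87) and *Apoa4* (1.60 ± 0.69) had an unadjusted p under 0.05, as did 7.85% of all genes, and an edgeR adjusted p = 0.627. The first 3 rest on the rectum counts just given. For *Alpi*, *Apob* and *Reg3b*, at 0 in rectum, the term could not be estimated.

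As a description of likeness, the Pearson correlation of log2(CPM + 1) over the 96 libraries was ranked among 17412 genes. These libraries share tissues and differ in depth, so no test is attached. *Fabp2* and *Apoa4* were each most like the other (r = 0.877). *Lct* and *Alpi* were both most like *Sis*, sucrase-isomaltase (0.856 and 0.884), followed by *Defa29* and *AY761184*. *Apob* was most like *Smlr1* and *Leap2* (0.953 and 0.882), and *Anpep* like *Glod5* and *Apoa4* (0.678 and 0.674). *Reg1* was most like the acinar genes *Pnliprp1*, a lipase-related protein, and *Try4* (0.920 and 0.911), *Reg3b* like *Reg3a* and *Reg1* (0.832 and 0.751), and *Reg3g* like *Isx*, an intestinal homeobox gene, and *Gm10499* (0.653 and 0.610).

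Close relatives limit some of these values, since the counting may split or drop reads shared by similar transcripts. *Alpi* is 83.1% identical to *Akp3* over the aligned bases with a shared run of 68, *Reg1* 81.5% identical to *Reg2*, and *Reg3b* 74.7% identical to *Reg3g* with a run of 35. *Fabp2* overlaps the antisense gene *4933405D12Rik* and *Apoa4* overlaps *Gm10680*, and the strand setting of the counting is not given in the sources used here, so reads of each pair cannot be told apart.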

How the data were processed

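Bulk RNA from 16 tissues was sequenced from libraries that the paper calls 3′-enriched and the series record Smart-seq2 based. The authors aligned reads with Bowtie2 to mm10 and counted them per gene with HTSeq, and the deposited values are raw counts. For tool versions, annotation, strand setting and molecular identifiers, nothing was given in the sources used here. CPM were computed on library totals, which ranged from 11244 to 1658192. Group tests used edgeR 4.0.16 in R 4.3.3 (TMM factors, quasi-likelihood F-test, Benjamini-Hochberg adjustment, threshold 0.05) on all genes with any count in the libraries of a comparison, and SE is the absolute log2 fold change over the square root of F. Genotypes were compared within 6 tissues (3 against 3 libraries). Intestine was compared with 4 tissues with genotype as a term (6 against 6). DESeq2 1.42.0, other scalings, a low-count filter, thinning, a replicate block, removal of acinar genes and leaving out each library were alternatives. Against a group at 0, a floor of 3 counts over the group gave the lower bound, on library totals. Floors cover counting error only. Scripts were tested on simulated data. The alternatives for lower bounds and for single genes between genotypes in stomach, liver and the libraries labelled adipose, and those for *Apob* and 2 lists against liver, were chosen after seeing the data.

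Named were the 9 genes, per list the 3 with the highest mean CPM in intestine and up to 2 rising and 2 falling genotype calls per tissue, the 2 genes most like each member, and *Scx*. Genes of the adipose check, *Cubn*, *Car1*, *Cyp2e1*, *Tat* and cytokines at 0 were named after their values were seen. The members and lists were chosen with earlier results of these data known. Gene positions are GRCm38 and promoters RefSeq GRCm38.p6.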

Additional observations from a re-analysis of the deposited data

How the results depend on the processing

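The numbers of the 9 genes called higher in intestine ranged over the alternatives from 7 to 9 against rectum, 6 to 9 against stomach, 6 to 9 against kidney and 6 to 8 against liver. The genotype and interaction tests stayed at 0 except for 1 gene (*Reg1*) in stomach without Scx-/- replicate 2 (range 0 to 1 over fits that left out 1 library), and with 3 libraries a group a count of 0 says little of stability. The sign of small intestine genotype differences depended on the setting. The log2 fold change of *Fabp2* was 0.35 with RLE factors, 0.42 on library totals, 0.27 with filterByExpr, 0.35 with DESeq2 and 0.83 after thinning. That of *Lct* was 0.41, 0.47, 0.32, 0.41 and 0.72 in the same order, and *Reg1* was 0.0299, 0.0882 and 0.0299 with RLE factors, library totals and DESeq2. Leaving out 1 library gave -0.40 to 0.20 for *Fabp2*, -0.25 to 0.45 for *Lct*, -0.18 to 0.93 for *Alpi*, -0.0803 to 0.79 for *Apoa4*, -2.60 to 1.76 for *Reg3b* and -7.14 to 0.00509 for *Reg3g*. Deviations from the group mean were correlated between libraries of the same replicate number. The r was -0.039 to 0.013 over 18 genotype pairs and -0.017 to 0.061 over 24 tissue pairs. These values cannot show whether replicate numbers mark shared mice, since mice differ between genotypes and counting error is large at these depths. With the replicate block, *Fabp2* was 0.0523, *Lct* 0.0736 and *Reg3b* 0.52, and the block changed no call of the 9 genes. The cause was not tested. On TMM-scaled totals the Scx-/- intestine means were 4609 CPM for *Fabp2*, 587.9 for *Lct*, 16168 for *Apoa4*, 143.5 for *Anpep* and 3518 for *Reg1*, and the WT means 6294, 787.8, 17181, 476.7 and 5049 CPM. These means use the factors of all libraries together, not those of the tests.

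Against stomach, *Reg1* moved from an edgeR adjusted p of 0.0498 to 0.0508 without acinar genes, with a log2 fold change of 4.37 and 4.36. Removing acinar genes leaves the *Reg1* counts as they are, so this does not test whether acinar RNA contributes. *Reg3b* lost the stomach and kidney calls without intestine Scx-/- replicate 3, and *Reg3g* lost the stomach and liver calls with DESeq2. With filterByExpr 7, 7, 8 and 7 genes were called against rectum, stomach, kidney and liver. The filter left *Apob* untested against rectum and *Reg3g* against stomach, kidney and liver, and *Reg3b* against stomach had edgeR adjusted p = 0.0566. With Zg16 in the acinar list, an alternative added after seeing the data, the *Reg1* ratio was 39.7 in intestine and 4.56 in the libraries labelled adipose. Thinned to the lowest total, 7, 6, 6 and 6 of the 9 genes were called higher than in rectum, stomach, kidney and liver, since *Apob*, *Anpep* and *Reg3g* lost calls. Counts over all genes moved further: higher in intestine than in rectum 218, with 143 under the block and 81 thinned, than in stomach 365, with 588 on library totals, 226 under the block and 76 thinned, than in kidney 592, with 380 and 102, and than in liver 564, with 1324 on library totals, 317 and 130. Between genotypes, filterByExpr and DESeq2 gave 0 and 2 in stomach (9 reported), 0 and 12 in kidney (30) and 6 and 31 in liver (59), and thinning gave 30 in rectum (63).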
